A study of Mus musculus with 5 samples.

Results

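The subject is a set of 774 c-Jun binding sites that were listed in both treatments of the study and never overlapped a listed p300 peak. The peaks of 4 deposited lists were merged wherever they shared at least 1 bp, which gave 44718 sites. They were selected on the peak lists alone. Kept were those with a c-Jun peak without pioglitazone and a c-Jun peak with it, and no p300 peak in either treatment. They are 1.73% of all sites, 10.4% of the 7476 c-Jun sites that had no p300, and 9.81% (95% interval 9.16 to 10.5) of the 7892 sites with c-Jun in both treatments. The presence or absence of peaks chose these sites, so these counts describe the choice and carry no test.

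The peaks come from chromatin immunoprecipitation with sequencing (ChIP-seq) in the mouse stromal cell line MS5, derived from bone marrow and used at passage 11. TGF-β1 (10 ng/mL, 5 h) was given to every ChIP group, and no group without TGF-β1 was analysed here. The 4 groups were c-Jun with TGF-β1, c-Jun with TGF-β1 and pioglitazone at 20 ng/mL, p300 with TGF-β1, and p300 with TGF-β1 and pioglitazone at 20 ng/mL, with 1 library each. A pooled input is the other sample of the series and was not analysed here. The labels name no replicate cultures, so any difference between treatments rests on 2 libraries and cannot be set against replicate error. Listed were 17044 c-Jun peaks without and 13325 with pioglitazone, and 31466 and 21994 p300 peaks. Sequencing depth is unknown, and every interval given covers counting error only.

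c-Jun is a subunit of AP-1, a dimeric transcription factor of the basic leucine zipper class that is induced and phosphorylated in response to growth factors and stress, and that acts beside SMAD proteins in the transcriptional response to TGF-β1. p300 is a histone acetyltransferase that transcription factors recruit, and its binding is widely used as a mark of active enhancers and promoters. Pioglitazone is an agonist of the nuclear receptor PPARγ, which directs adipocyte differentiation and can restrain AP-1 at some genes. A site with c-Jun and no p300 peak is thus a place where the transcription factor was detected and the coactivator was not called. A p300 level under the calling threshold cannot be told apart from none.

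All 774 sites were built from exactly 1 c-Jun peak of each treatment. They were 249 to 483 bp long, with a median of 287.5 bp, and covered 236 kb in total. The lists give mm9 positions but no peak height, because the deposited score is 1 for every peak. The place of a row in its list was therefore used as the measure of rank, given as a percent of the list from its start; what the rows were sorted by was not stated. Within chromosomes the rank ran with the number in each peak's name, at a rank correlation of at least 0.853 without and 0.823 with pioglitazone.

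The c-Jun sites without p300 included the very first rows of both c-Jun lists. The site chr8:74134832-74135090 was at row 1 of both lists, and its nearest p300 peak centre lay 19005 bp away without and 26516 bp away with pioglitazone. The site chr17:34052890-34053138 was at row 2 of both, with p300 centres 6620 and 3794 bp away. The site chr2:170336638-170336886 stood at rows 3 and 4. Its nearest p300 centre was 13968 bp away without pioglitazone and 264 bp away with it, just beyond overlap. The site chr7:16705246-16705518 was at rows 5 and 7, with p300 21380 and 21307 bp away. These 4 sites kept their place among the first 10 rows of c-Jun in both treatments.

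A further 6 sites completed the 10 with the smallest summed position. chr7:134621774-134622022 was at row 15 without and 13 with pioglitazone, and chr11:102110041-102110290 at rows 12 and 24. chr19:5118204-5118453 held rows 22 and 18, and its nearest p300 centre was 30283.5 bp away without and 577.5 bp away with pioglitazone. chr16:4719127-4719378 was at rows 38 and 25, with p300 7190.5 bp away without and 70767.5 bp away with pioglitazone. On chromosome 18, the site at 3382966 to 3383237 was at rows 31 and 36, with p300 45615.5 and 45505.5 bp away. The other, at 14841233 to 14841484, was at rows 37 and 39 and had p300 centres at 294.5 and 262.5 bp in the 2 treatments. Of the p300 peaks nearest to these 10 sites, the highest placed was the one beside the chromosome 11 site, at row 2096 of 31466 without and 3679 of 21994 with pioglitazone.

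Over the whole set, positions spread from row 1 to row 17017 without pioglitazone and from row 1 to row 13321 with it. The median position was 44.0% of the list without pioglitazone (95% interval of the median 40.4 to 47.7; quartiles 15.5 and 69.4) and 42.6% with it (38.7 to 47.3; quartiles 11.2 and 69.8). The 5762 sites listed for both factors in both treatments had medians of 27.1% and 33.3%. By its median the set without p300 thus lay farther down the c-Jun lists, by 16.9 points without and 9.33 with pioglitazone. When only the first 50% of rows of every list were used, these differences were 3.34 and -2.44 points, so the second changed direction. When only the c-Jun lists were shortened in this way both did, to -3.41 (-6.86 to 0.50, an interval that includes 0) and -9.89 (-12.4 to -7.26) points. Of the 774 sites, 58 were in the first 1% of the list without pioglitazone, 7.49% (5.74 to 9.58), where 2.14% of all sites with c-Jun in both treatments were. With pioglitazone 43 were, 5.56% (4.05 to 7.41), against 1.69%. Among sites in all 4 lists, 62 (1.08%, 0.826 to 1.38) and 53 (0.920%, 0.690 to 1.20) were in the first 1%.

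The share without p300 was therefore highest at the start of the list, low between 10% and 30%, and higher again toward the end. In the first 1% of the list without pioglitazone, 58 of 169 sites with c-Jun in both treatments had no p300, 34.3% (27.2 to 42.0). The share was 19.2% (13.5 to 26.0) in the next 1%, 7.87% (5.63 to 10.6) between 2% and 5%, and 5.14% (3.99 to 6.50) between 10% and 20%. It was 19.2% (14.9 to 24.0) in the last 10%. The list with pioglitazone had a like shape. There 43 of 133 sites had no p300 in the first 1%, 32.3% (24.5 to 41.0), and 50 of 133 in the next 1%, 37.6% (29.3 to 46.4). Between 10% and 20% the share was 4.58% (3.44 to 5.96), and in the last 10% it was 15.0% (12.0 to 18.6).

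**Figure D1:**
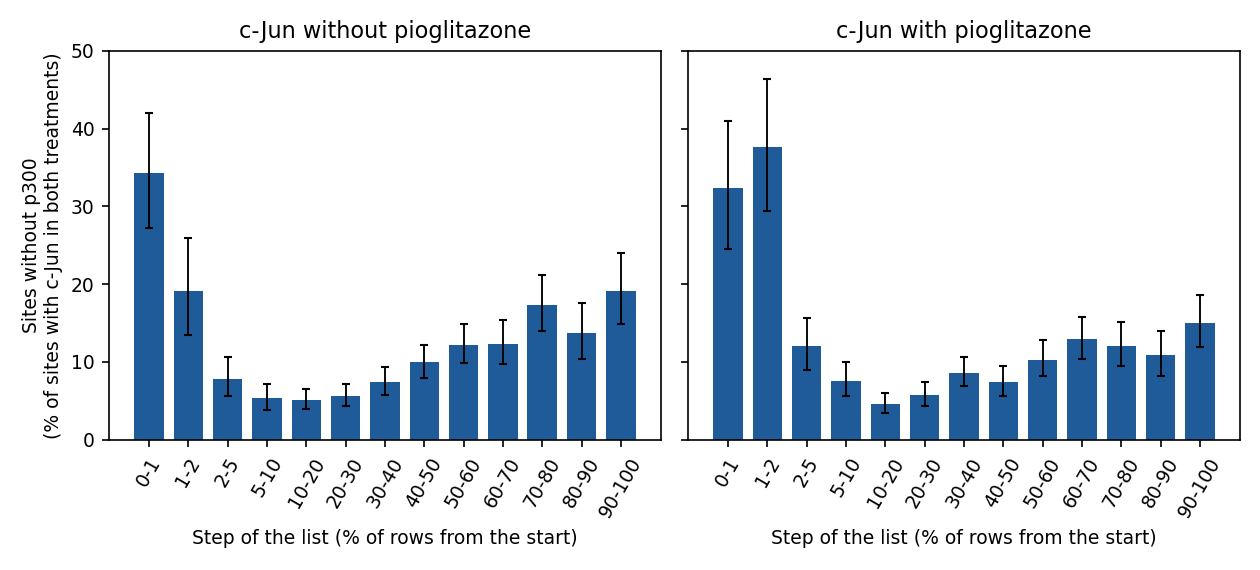
Bars give the percent of sites with c-Jun in both treatments that had no p300 peak, by step of the c-Jun list without pioglitazone (left) and with it (right), and error bars are exact 95% intervals. Both panels start above 30% in the first 1%, fall to about 5% between 10% and 20% (5.14% and 4.58%) and rise to 19.2% and 15.0% in the last 10%.

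Among the first 100 sites with c-Jun in both treatments, 33 had no p300 by the order without pioglitazone and 41 were in all 4 lists. By the order with pioglitazone the numbers were 32 and 40. Sites with c-Jun alone in only 1 treatment were nearly absent there. The first of them was at row 114 without and at row 268 with pioglitazone, and 1 of 3603 and 0 of 3099 were in the first 1%. The count of 0 allows a share of up to 0.119%. Taken from the side of c-Jun sites without p300, 58 of 59 in the first 1% of the list without pioglitazone were also listed with it, 98.3% (90.9 to 99.96). Between 20% and 30% that share was 32.1% (25.4 to 39.3), and in the last 10% it was 7.23% (5.55 to 9.23). In that first 1% (170 rows), 169 sites with or without p300 had c-Jun in both treatments. Between 20% and 30% 1047 did and in the last 10% 308 did, where 10% of the list is about 1704 rows. The fall along the list was thus not particular to sites without p300. Over all 22477 sites with c-Jun in either treatment, 35.1% had it in both, and 56.4% of those with p300 in both treatments did.

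Positions in the 2 c-Jun lists went together. Spearman's rho across the 774 sites was 0.81, and it was 0.72 across the 5762 sites in all 4 lists. Sites are not independent replicates, and all points of a list share its library, so no p-value is given. Of the 58 sites in the first 1% without pioglitazone, 42 were in the first 1% with it, and the lowest placed of the 58 was at row 207 of 13325 (1.55%). The 62 sites in all 4 lists that started in the first 1% kept to the first 1.37%.

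Farther down, a larger share of the sites without p300 than of those in all 4 lists stood high with pioglitazone too. Of those between 2% and 5% without pioglitazone, 36 of 38 were in the first 10% with it, 94.7% (82.3 to 99.4), against 289 of 415 sites in all 4 lists, 69.6% (65.0 to 74.0). Between 5% and 10%, 28 of 39 were, 71.8% (55.1 to 85.0), against 243 of 644, 37.7% (34.0 to 41.6). Over the whole first 10%, 154 of 167 sites without p300 were also in the first 10% with pioglitazone (92.2%), and so were 48 of 53 sites with p300 only with pioglitazone (90.6%), 65 of 93 with p300 only without it (69.9%) and 704 of 1236 in all 4 lists (57.0%). These are descriptions, since being in both lists was part of the choice. Over the whole set, 356 sites were nearer the start with pioglitazone and 418 nearer the end, with a median difference in place of 0.14 percentage points of the list. For the sites in all 4 lists the median difference was 3.19 points toward the end.

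**Figure D2:**
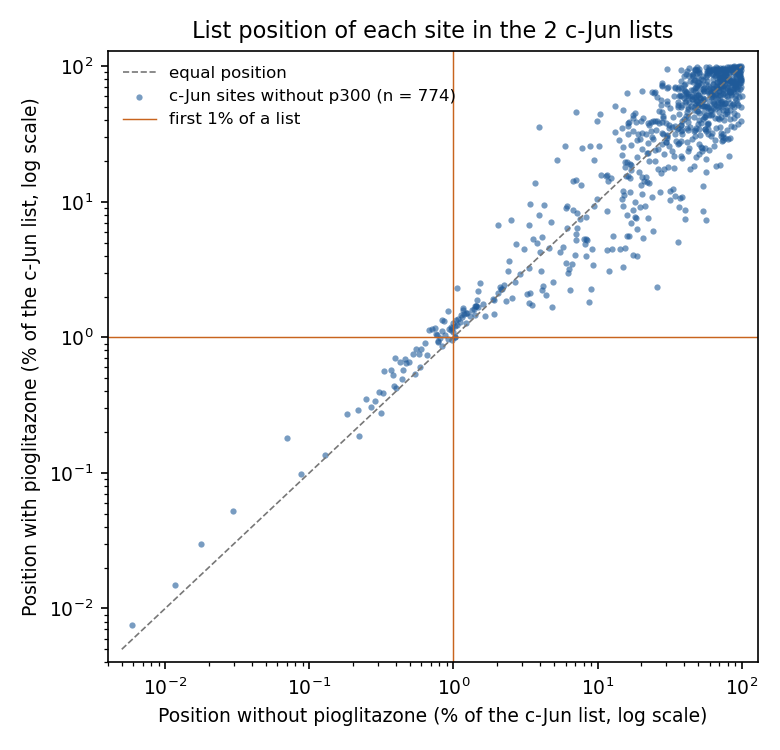
Each point is 1 of the 774 c-Jun sites without p300, placed by its position in the c-Jun list without pioglitazone (x) and with it (y), both as percent of the list on log scales; the dashed line marks equal position and the solid lines the first 1%. Points stay close to the dashed line up to about 2% and scatter widely below it and above it from 10% on.

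At 51 of the 774 sites the places in the 2 lists differed by more than 40 points of the list. The lists differ in length (17044 and 13325 rows), have 1 library each and are sorted by an unstated value, so a difference in place does not measure a change in binding. The site placed most nearer the start with pioglitazone was chr2:92854605-92854900, at row 14034 without and row 2919 with it, 82.3% and 21.9% of the list. Next by this difference, chr8:55199961-55200209 was at rows 16763 and 5270, chr4:130213791-130214070 at 16108 and 4976, chr3:88597204-88597492 at 14076 and 3955, and chr5:92557663-92557913 at 15021 and 4761. All 5 had no p300 centre within 5 kb in either treatment, the nearest being 5495.5 bp away at the chromosome 4 site.

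The site placed most nearer the end with pioglitazone was on chromosome 18 (62362859 to 62363121), at row 5151 without and row 12755 with it, 30.2% and 95.7%. This site had a p300 centre 827 bp away without pioglitazone, and the nearest with pioglitazone was 40171 bp away. chrX:139116363-139116667 was at rows 6494 and 12488, chr7:148017410-148017681 at 7365 and 13004, chr7:75502332-75502593 at 7067 and 12343, and chr15:94043877-94044185 at 8317 and 13221. At these last 4 sites the nearest p300 centre of either treatment was 19056 bp away or farther.

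The c-Jun peaks of the 2 treatments lay closest together at the highest placed sites. The distance between the c-Jun peak centres with and without pioglitazone had a median of 9.5 bp (7 to 17) for the 58 sites in the first 1% and of 66 bp (58 to 77) for the 338 sites in the second 50% of the list. At 40 of the 58 it was at most 20 bp. Sites in all 4 lists showed 11.5 bp (9 to 16) and 54 bp (51 to 58). Between 1% and 10% of the list the medians were 28 bp (18 to 39) without p300 and 31 bp (29 to 32) in all 4 lists.

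Many of the sites had p300 close by. The nearest p300 centre of either treatment was at a median of 5511.75 bp (4199.5 to 6685.5), with quartiles at 844.625 and 22000 bp. It was within 500 bp at 125 sites, 16.1% (13.6 to 18.9), within 2 kb at 269, 34.8% (31.4 to 38.2), and within 10 kb at 472, 60.98% (57.4 to 64.4). At 81 sites no p300 centre lay within 50 kb, and the farthest was 541142 bp away. Among all 7476 c-Jun sites without overlapping p300, 11.4% had a p300 centre within 500 bp and 26.0% within 2 kb. Among the 6702 of them listed in only 1 treatment the shares were 10.9% (10.2 to 11.7) and 25.02% (24.0 to 26.1).

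Those 6702 sites stand lower in the lists, and in both groups a near p300 peak was rarer in the second 50% of the list than between 10% and 50%. For these steps, sites listed only with pioglitazone were placed by the list with it, and all others by the list without it. In the first 10% of the list, p300 was within 500 bp at 31 of 167 sites listed in both treatments, 18.6% (12.97 to 25.3). It was so at 15 of 51 listed in 1 (21 only without and 30 only with pioglitazone), 29.4% (17.5 to 43.8). The order of the groups there was opposite to that farther down. Between 10% and 50% of the list, p300 was within 500 bp at 57 of 269 sites listed in both treatments, 21.2% (16.5 to 26.6), and at 219 of 1383 listed in 1, 15.8% (13.9 to 17.9). In the second 50% the shares were 10.9% (7.83 to 14.8) and 9.43% (8.66 to 10.3). The intervals of the 2 groups overlapped in each of these steps. In the first 1%, 11 of the 58 sites had p300 within 500 bp, 24 within 2 kb, and 20 had none within 10 kb. p300 distance helped to choose these sites, so no test is given.

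The p300 peaks within 500 bp sat between 250 and 500 bp from the site centre with 1 exception, a limit that the overlap rule sets, and mostly on 1 side. Without pioglitazone 86 p300 centres lay in that range and with it 90, while 0 and 1 lay closer. Of the 125 sites with p300 within 500 bp, 62 had it on the side of lower coordinates only, 59 on the other side only and 4 on both. It was listed there without pioglitazone only at 37 sites, with pioglitazone only at 39 and in both treatments at 49. These flanking p300 peaks were spread over their lists. Their median position was 51.7% (39.7 to 60.4) without and 49.0% (43.7 to 60.7) with pioglitazone. Without pioglitazone 10 of 86 were in the first 10% of the list, and with it 10 of 91. Peaks drawn evenly from a list would have a median of 50%, with 10% of them in the first 10%.

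**Figure D3:**
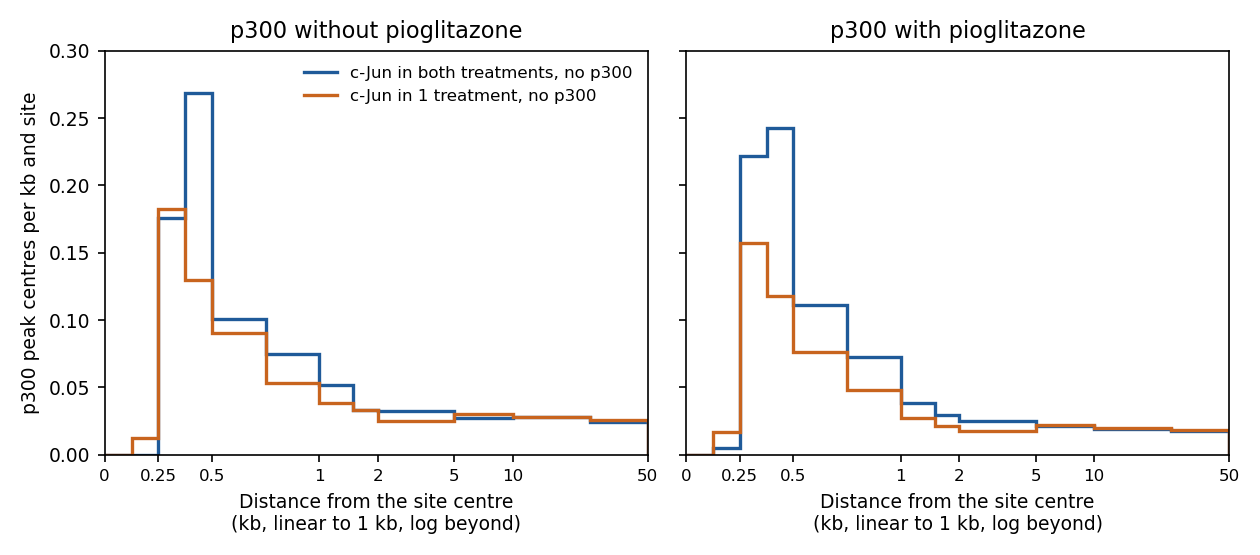
Lines give the number of p300 peak centres per kb and site against the distance from the site centre, for p300 without pioglitazone (left) and with it (right), at the 774 c-Jun sites of both treatments and at the 6702 of 1 treatment; the distance axis is linear to 1 kb and logarithmic beyond. The density was highest between 250 and 500 bp, at up to 0.269 per kb for the former, and fell to 0.0246 and 0.0179 per kb between 25 and 50 kb.

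At sites in all 4 lists, 5612 p300 centres without pioglitazone lay within 125 bp of the site centre and 148 at 125 to 250 bp. Within the set, the nearest p300 centres were at the following sites. Centre distance is not the gap between peak edges that the overlap rule uses. A longer site with a p300 centre farther off can lie as near to the limit or nearer. chr10:41997467-41997715 had p300 centres at 277 bp without and 242 bp with pioglitazone, and its c-Jun peaks were at rows 583 and 1287. chr1:120285668-120285929 and chr7:97129481-97129729 had a p300 centre at 253.5 and 258 bp, both with pioglitazone only. The chromosome 7 site is among the first rows of c-Jun (100 without and 81 with pioglitazone). Just outside the rule, c-Jun and p300 peaks overlapped by only 2 bp at chr4:140866277-140866775 and by 3 bp at chr3:57972404-57972984 and chr7:109358155-109358717. Of the 7118 sites with c-Jun in both treatments and a p300 peak, 7 had an overlap of at most 10 bp. A like count by the gap between peak edges was not made for the set.

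Some high placed c-Jun sites stood far from any p300 peak. Among the first 10% without pioglitazone, the farthest was chr17:40961563-40961871, at rows 1549 and 597, with p300 398958 bp away without and 1491047 bp away with pioglitazone. chr12:26756459-26756716 was at rows 349 and 896, with 244782 and 244734 bp to p300. chr12:119082052-119082325 was at rows 141 and 115, with 170200 and 493616 bp. chr3:40290586-40290888 and chr15:95107043-95107338 were at rows 649 and 659, and 1309 and 1775. Their nearest p300 centres lay 149038 and 132346 bp away.

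The wider surroundings, from 2 to 50 kb, were not used by the rule, but their peaks come from the same lists that defined the groups. The differences below describe the groups and are no independent test of them. A p300 peak of either treatment was listed in that range at 661 of the 774 sites, 85.4% (82.7 to 87.8), and at 91.3% (90.6 to 92.1) of sites in all 4 lists. The set was thus lower by a difference of -5.94 percentage points (Newcombe 95% interval -8.69 to -3.51). Compared step by step, in 10% steps of the c-Jun list without pioglitazone, it was -4.80 (-7.40 to -2.20). The size of the overall difference moved with the length of the lists: it was -20.8 points (-24.8 to -17.0) with only the first 50% of rows of every list and -11.1 (-14.2 to -8.22) with list lengths equal between treatments. Against c-Jun sites without p300 listed only without pioglitazone, 87.6%, it was -2.17 (-5.02 to 0.40), and -4.63 (-7.61 to -1.65) within steps. Against those listed only with pioglitazone, 87.1%, it was -1.72 (-4.62 to 0.89), and -2.50 (-5.54 to 0.53) within steps of the other list. The mean number of p300 peaks at 2 to 50 kb, taking the larger of the 2 treatments, was 2.69 per site, against 3.37 at sites in all 4 lists and 2.74 at c-Jun sites of 1 treatment. Sites within 50 kb of each other share neighbours, which these intervals do not allow for.

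Other c-Jun peaks were also less frequent around the set. One was listed at 2 to 50 kb from 593 sites, 76.6% (73.5 to 79.6), against 82.0% (81.0 to 83.0) of sites in all 4 lists. This is -5.41 points (-8.66 to -2.38), or -4.08 (-7.27 to -0.883) when compared by step. Against c-Jun sites of only 1 treatment it was -3.18 (-6.54 to -0.0328) for those without and -3.96 (-7.35 to -0.774) for those with pioglitazone. By step these were -5.07 (-8.71 to -1.43) and -4.87 (-8.50 to -1.24).

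The sites were mostly single. The median distance to the next site of the set was 773 kb, and 754 of the 774 had no other within 12045.5 bp. The remaining 20 formed 10 pairs, with centres 939 to 12045.5 bp apart, and no larger group. The pair on chromosome 19 stood highest: 46402926 to 46403184 at rows 181 without and 164 with pioglitazone, and 46404468 to 46404720 at rows 707 and 299. On chromosome 1, the site at 132994356 to 132994671 was at rows 253 and 292 and its neighbour at 132986338 to 132986597 at rows 7247 and 4490. On chromosome 5, the pair at 20998111 to 20998413 and 21004353 to 21004665 stood at rows 3799 and 3190 without and 3064 and 3780 with pioglitazone.

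The set was found on all autosomes and the X, with 24 to 67 sites per chromosome, and on the Y with 0. Chromosome 7 held the most, 67 sites or 8.66% of the set, against 5.91% of all merged sites and 4.84% of sites in all 4 lists. The difference from sites in all 4 lists was 3.81 percentage points (1.06 to 7.46, at the 99.75% level that 20 comparisons call for), and 3.69 (0.488 to 6.89) compared by step. Of the sites with c-Jun in both treatments on chromosome 7, 15.9% (12.6 to 19.8) had no p300.

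Of all merged sites, 2.33% were on the X and 4.87% on chromosome 13. Sites in all 4 lists were below the share of all sites on chromosome 7 and the X, and above it on chromosome 13. The X held 30 sites of the set, 3.88% against 1.49% of sites in all 4 lists, a difference of 2.38 points (0.672 to 5.11). Within steps of the list it was 1.86 (-0.367 to 4.09), so the interval then took in 0. On the X, 21.1% (14.7 to 28.8) of 142 sites with c-Jun in both treatments had no p300. Chromosome 13 held 24 sites, 3.10% against 5.97%, a difference of -2.87 points (-4.60 to -0.222), or -3.20 (-5.34 to -1.06) by step. There 5.52% (3.57 to 8.10) of 435 had no p300. The chromosome 13 interval included 0 under 6 of the 7 alternatives run, and the chromosome 7 interval under 1. Against c-Jun sites of only 1 treatment, 0 of the 20 chromosome intervals excluded 0.

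**Figure D4:**
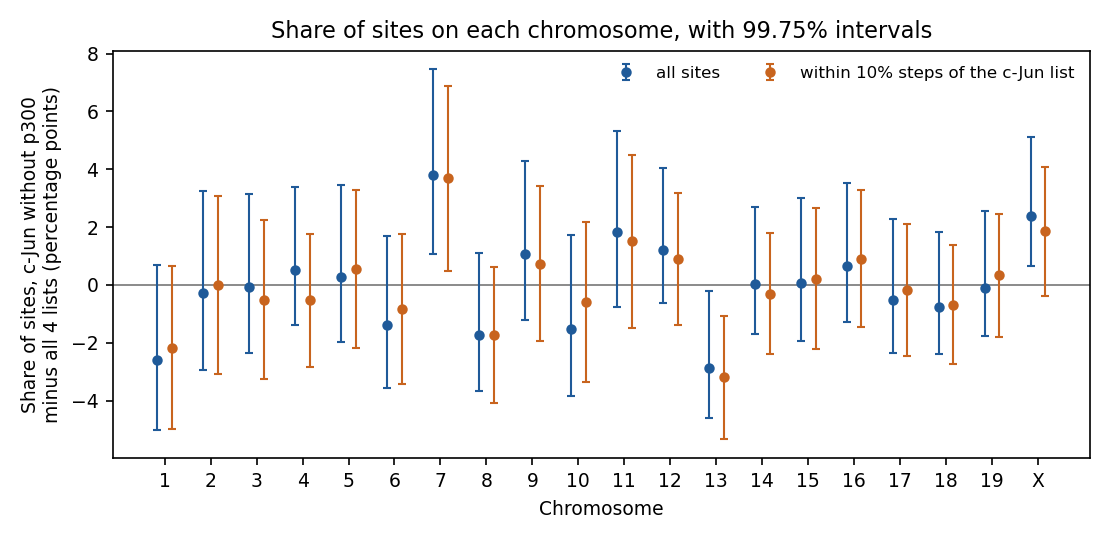
Points give, for each chromosome, the share of the 774 c-Jun sites without p300 minus the share of the 5762 sites in all 4 lists, in percentage points, overall and in 10% steps of the list of c-Jun without pioglitazone; bars are 99.75% intervals. Chromosome 7 lies above 0 and chromosome 13 below 0 by both measures, and the X above 0 overall only.

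At the other end, the last sites by summed position were chr3:102015313-102015645, at rows 16940 of 17044 and 13300 of 13325, and chr19:23922249-23922561, at rows 16985 and 13225. Their nearest p300 centres were 23976 and 16294 bp away, both without pioglitazone. Sequence and annotation of mm9 were not used, so the sites are given by position and were not assigned to genes, promoters or AP-1 motifs, and their sequences are not shown.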

How the data were processed

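ChIP-seq peak lists of 4 libraries of MS5 cells were used, 1 per antibody and treatment. The build mm9, HOMER, SAMtools 1.9 and Bowtie2 2.3.4.3 are named in the submitters' processing notes. The sources used here do not give the peak caller's settings, the role of the pooled input or the handling of duplicate reads. Each deposited list holds peak positions, all of 1 width (249 bp and 235 bp for c-Jun without and with pioglitazone, 247 bp and 227 bp for p300), and a deposited score of 1 in every row. Positions are printed counted from 1. Sites of the set were joined into groups at centre distances of up to 12.5 kb.

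Peaks were merged at an overlap of at least 1 bp with pandas 2.3.3 and numpy 2.4.6 under Python 3.11.15, with scipy 1.17.1 for intervals. The 44718 sites were identical to those of bedtools merge (version 2.31.1). Merging was run on simulated lists whose sites lay far apart and whose peaks always overlapped within a site, so it did not test crowded sites. Interval coverage was checked on independent simulated counts, whereas real sites can share neighbours. Distances run between the centre of the merged site and peak centres. Shares carry exact (Clopper-Pearson) 95% intervals, medians order-statistic intervals, differences of shares Newcombe intervals, and differences within 10 steps of the list Mantel-Haenszel intervals. No p-value is given.

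The sites named are the 10 first by summed position and the 5 with the largest difference in place each way. Others are the 5 farthest from p300 in the first 10% and those with the nearest p300 centre inside the rule. Also named are those with the smallest overlap outside the rule, 3 groups of neighbours and the last 2. The set, the lists and the comparisons were chosen with earlier results of these data known. The parts on promoters, motifs, repeats and gene lists were planned for an mm9 genome or annotation and were not run.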

Additional observations from a re-analysis of the deposited data

How the results depend on the processing

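Each group has 1 library, so none was left out, and sequencing depth is unknown. No paired analysis was possible because each group holds 1 library and no result comes from a replicated test. The alternatives on start sites, motifs and repeats were not run, since mm9 sequence was not used. In the other 9 alternatives, 49 of 86 recomputed values kept their direction and stayed within the counting interval, on the same side of 0, or within 1.5 times of the count.

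With only the first 50% of rows of every list, p300 was absent from 15.6% of sites with c-Jun in both treatments. The median positions, measured in the whole lists, were 17.0% without and 15.2% with pioglitazone, which the shortening itself lowers. The differences of these medians from sites in all 4 lists were 3.34 and -2.44 points. The share in the first 1% was 15.2% and 11.2%, p300 lay within 2 kb of 16.2%, and the chromosome 13 difference was -1.72 points. With only the c-Jun lists shortened, 347 sites remained (7.91%), at medians of 11.7% and 8.76%. The differences of medians were -3.41 and -9.89 points, 16.7% and 12.4% were in the first 1%, 42.1% had p300 within 2 kb, and chromosome 13 differed by -2.86 points.

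The share with p300 at 2 to 50 kb, relative to sites in all 4 lists, differed by -20.8 points with every list shortened and by -11.1 with equal lengths, against -5.94. With list lengths equal between treatments, p300 was absent from 11.7%, lay within 2 kb of 29.3%, and chromosome 13 differed by -2.16 points. With c-Jun peaks overlapping by 50% of both, the median position without pioglitazone was 39.8% and chromosome 13 differed by -2.57 points. Leaving out sites with a p300 centre within 500 bp gave 8.22%, 22.2% within 2 kb, and -2.43 points for chromosome 13. Leaving out those within 2000 bp gave 505 sites (6.40%), 0% within 2 kb by construction, a median of 49.5% without pioglitazone, a difference of medians of 22.5 points, 2.68 points for chromosome 7 and -2.21 for chromosome 13. Within 10% steps of the c-Jun list without pioglitazone the X differed by 1.86 points. In the first 2% in place of the first 1%, an alternative chosen after seeing the data, were 11.6% of the sites without and 12.0% with pioglitazone. The cause of the other changes was not tested.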

Other observations

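The concentration at the start of the c-Jun lists was also present at the 264 sites with c-Jun in both treatments and p300 with pioglitazone only. Of these, 26 were within the top 1% of c-Jun rows without pioglitazone, 9.85% (6.53 to 14.1), and 21 within the top 1% with it, 7.95% (4.99 to 11.9). At the 1092 sites with c-Jun in both treatments and p300 without pioglitazone only, the shares were 2.11% (1.34 to 3.14) and 1.47% (0.840 to 2.37). The rank correlation of c-Jun positions was 0.79 across the former and 0.66 across the latter. The 4 groups of sites with c-Jun in both treatments were defined by the same lists, and their differences were not tested.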
